A study of Mus musculus with 30 samples.

Results

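The oil control arm of a neonatal estrogen experiment was examined for change with time alone, by setting the hypothalamus 3 h after an injection of oil against the hypothalamus 1 h after it. The members are the 3 oil 3 h arrays and the 3 oil 1 h arrays, taken by their titles, which are 6 of the 30 arrays of the series. Every mouse of the series was a female C57BL/6J pup of about 1.4 g injected under the skin on the day of birth with 20 μl of peanut oil, which carried 7.5 μg of estradiol benzoate (EB, an esterified estrogen) in the EB groups and nothing else in the oil groups. Tissue was taken 1, 3, 6, 12 or 24 h later, with 3 arrays a group, and each array held RNA from the whole hypothalamus of 1 animal on an Affymetrix mouse expression array. The groups used here are thus oil 3 h and oil 1 h, with EB 3 h and EB 1 h and the later oil groups for comparison. The litters of the pups are not given, and no uninjected pup was analysed here, so handling, injection, time since birth and time of day cannot be told apart. In a whole hypothalamus, fewer cells of a type and less RNA per cell cannot be told apart either.

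Immediate early genes such as Fos, Jun and Egr1 encode transcription factors whose mRNA appears within minutes of a stimulus, without new protein synthesis, and decays within hours; in the hypothalamus they are used as markers of recently active neurons. The unfolded protein response is the set of genes a cell switches on when unfolded protein builds up in the endoplasmic reticulum. It runs through the sensors Ire1, which splices Xbp1 mRNA, Atf6, and Perk, whose arm is shared with the integrated stress response and leads through Atf4 to Ddit3 (CHOP), Chac1 and Ppp1r15a.

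The upstream sequences of 5 genes whose signals are described below are given to show the elements these responses are known to act through. Each is the 150 bases before the RefSeq transcription start on build GRCm38.p6, from 5′ to 3′ on the strand of the gene, with the matched element in capitals. The endoplasmic reticulum stress element was searched as CCAAT and CCACG with any 9 bases between them, the cyclic AMP response element as TGACGTCA and the AP-1 site known from the Jun promoter as TGACATCA, each on both strands of the 250 bases before the start; no match of one overlapped another in the 5 sequences. Hspa5 is at chr2:34771940-34772089 on the plus strand, Pdia6 at chr12:17266439-17266588 on the plus strand, Creld2 at chr15:88819496-88819645 on the plus strand with its match on the opposite strand, Ppp1r15a at chr7:45526269-45526418 on the minus strand, and Jun at chr4:95052223-95052372 on the minus strand.
Hspa5, endoplasmic reticulum stress element: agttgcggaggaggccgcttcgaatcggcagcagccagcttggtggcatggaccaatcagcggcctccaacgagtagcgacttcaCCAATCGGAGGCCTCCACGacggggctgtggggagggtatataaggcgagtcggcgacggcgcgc
Pdia6, endoplasmic reticulum stress element: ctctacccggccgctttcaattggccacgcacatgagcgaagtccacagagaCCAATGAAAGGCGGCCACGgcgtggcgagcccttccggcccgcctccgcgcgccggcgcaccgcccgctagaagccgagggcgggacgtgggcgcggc
Creld2, endoplasmic reticulum stress element: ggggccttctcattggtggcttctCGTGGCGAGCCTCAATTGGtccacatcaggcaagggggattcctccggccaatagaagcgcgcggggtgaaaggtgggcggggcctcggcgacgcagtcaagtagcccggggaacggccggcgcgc
Ppp1r15a, cyclic AMP response element: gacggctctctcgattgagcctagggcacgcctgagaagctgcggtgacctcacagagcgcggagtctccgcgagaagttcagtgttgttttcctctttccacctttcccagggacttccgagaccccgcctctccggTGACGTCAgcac
Jun, AP-1 site: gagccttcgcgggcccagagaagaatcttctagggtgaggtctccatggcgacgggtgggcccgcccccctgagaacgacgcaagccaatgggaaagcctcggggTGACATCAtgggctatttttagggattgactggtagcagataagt
The endoplasmic reticulum stress element was found in 0.113% of 32851 promoters and in 5 of the 24 promoters of the 22 stress response genes with a RefSeq entry in the table used, those of Calr, Creld2, Dnajc3, Hspa5 and Pdia6. The cyclic AMP response element was in 1.55% of all promoters and in those of Ppp1r15a and of the immediate early genes Btg2, Dusp1 and Maff, and the AP-1 site was in 2.93% of all promoters and in those of Jun, Homer1, Klf6 and Maff. A match is a description of the letters only.

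No probe set passed the test between oil 3 h and oil 1 h. Among the genes whose 3 h signals all lay below their 1 h signals were 4 of 35 immediate early genes (11.4%), Fos, Egr1, Jun and Nr4a1. In the unfolded protein and integrated stress response list 8 of 24 (33.3%) did so, beside 7.91% of all genes. Both lists were chosen with earlier results of these data known. The 10 genes of smallest p without overlap were of varied function in either direction, with Jun, Ddit3 and Herpud1 among the lower ones. Of 27022 probe sets tested by limma with Benjamini-Hochberg adjustment, 0 were higher (0%) and 0 were lower (0%) in the oil 3 h arrays at an adjusted p under 0.05, and the smallest adjusted p was 0.0773. At an unadjusted p under 0.05 there were 1417 higher (5.24%) and 1445 lower (5.35%) probe sets, and the methods' test, which compares group means on the deposited signals, also called 0 in either direction after adjustment. The 3 signals at 3 h lay all above the 3 at 1 h for 1889 probe sets (6.99%) and all below them for 2220 (8.22%). The median log2 fold change was -0.01, and the plot of fold change against p shows where the named genes lie among the rest.

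**Figure D1:**
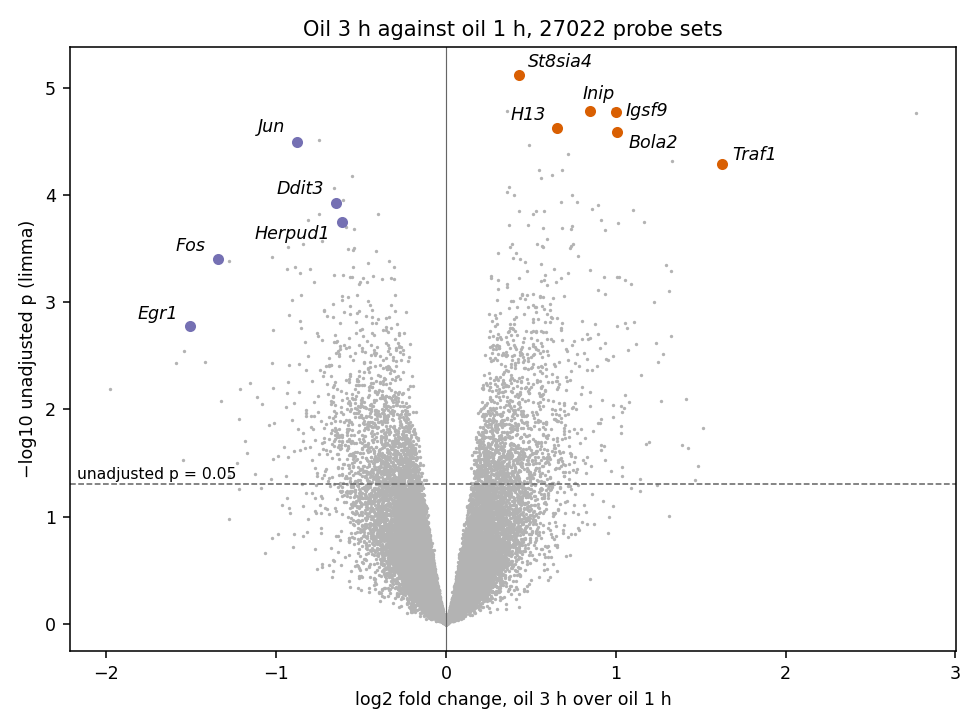
Log2 fold change of oil 3 h over oil 1 h (x axis) against −log10 of the unadjusted p-value from limma (y axis) for each of 27022 probe sets, with named genes coloured by direction and a dashed line at the unadjusted threshold of 0.05. None passed after adjustment; Fos at -1.35 and Egr1 at -1.51 lie far to the left, and Traf1 at 1.63 to the right.

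The count of 0 depended on which arrays were kept. Without oil 3 h replicate 3, limma called 66 probe sets higher (0.244%) and 60 lower (0.222%), among them Jun, Herpud1, Inip, Igsf9, Traf1, Yy1 and St8sia4. Leaving out oil 1 h replicate 1 gave 7 higher and 0 lower, leaving out oil 1 h replicate 3 gave 3 higher and 0 lower, and leaving out any of the other 3 arrays gave 0. Among these, Herpud1 and the brighter probe set of Jun read higher, and Inip, Igsf9, Traf1 and Yy1 lower, in oil 3 h replicate 3 than in the other two oil 3 h arrays. In the second probe set of Jun that array lay between the other two.

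Among the immediate early genes, Fos, Egr1, Jun and Nr4a1 had signals at 3 h that did not overlap those at 1 h, and all 4 were lower at 3 h. Fos, which encodes a subunit of the AP-1 transcription factor, had scaled signals (MAS5 brightness after all arrays were brought to the same median) of 133, 184 and 139 in the oil 3 h arrays, against 611, 291 and 314 in the oil 1 h arrays. Its log2 fold change was -1.35 (limma, SE 0.34, adjusted p = 0.144), and oil 1 h replicate 1 stood well above the other two. Without that array the log2 fold change of Fos was -1.01. Egr1, a zinc finger transcription factor induced by neuronal activity, read 179, 291 and 127 at 3 h, against 1018, 369 and 402 at 1 h. Its log2 fold change was -1.51 (limma, SE 0.43, adjusted p = 0.212), with the same oil 1 h array the highest.

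Jun, the partner of Fos in AP-1, had the smallest p of the named genes that read lower at 3 h. Its brighter probe set read 186, 192 and 288 in the oil 3 h arrays, against 417, 388 and 392 in the oil 1 h arrays, a log2 fold change of -0.88 (limma, SE 0.18, adjusted p = 0.0839). Its other probe set read 175, 143 and 145 at 3 h, against 281, 253 and 275 at 1 h, a log2 fold change of -0.81 (limma, adjusted p = 0.112). Both probe sets of Jun thus gave 3 h signals below every 1 h signal, and unlike Fos and Egr1 the 1 h arrays of Jun were close together. Nr4a1, an orphan nuclear receptor, read 134, 161 and 107 at 3 h, against 242, 166 and 162 at 1 h, a log2 fold change of -0.50 (limma, SE 0.18, adjusted p = 0.31). Jund, a further AP-1 subunit, was at -0.27, with 1 oil 3 h array inside the range of the 1 h arrays.

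Of 42 immediate early genes listed, 35 were measured above the filter, each by its brightest probe set. In this list 4 genes (11.4%) were lower and 1, Myc at 0.16, was higher without overlap, against 7.91% lower and 6.98% higher among the 12388 genes measured. At an unadjusted p under 0.05, 5 were lower and 2 higher, against 4.71% and 5.31% of all genes. The list as a whole did not lie low, with a median log2 fold change of -0.05 beside -0.01 for all genes. The 2 higher genes at that p were Srf, the serum response factor that drives Fos and Egr1 transcription, at 0.42, with 178, 170 and 123 at 3 h and 155, 108 and 93.8 at 1 h, and Klf10, a TGF-beta-inducible zinc finger factor, at 0.45; both overlapped between the groups. Egr1, Nr4a1, Jund, Srf and Klf10 were chosen after their values were seen.

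**Figure D2:**
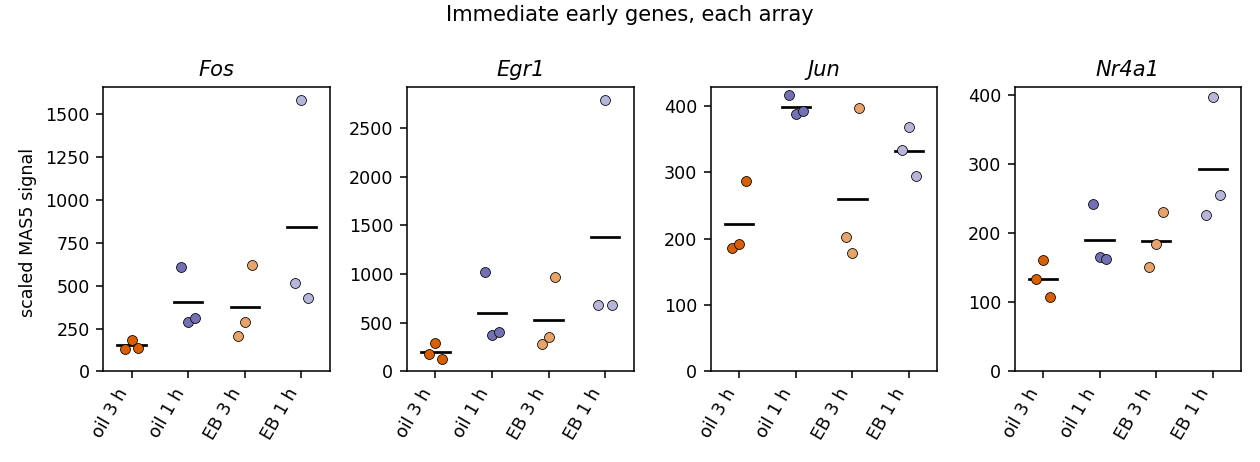
Scaled MAS5 signal (y axis, linear from 0) of Fos, Egr1, Jun and Nr4a1 in each array of oil 3 h, oil 1 h, EB 3 h and EB 1 h, with points for arrays and a line at the mean of 3. In oil, every 3 h point lies below every 1 h point in all 4 genes, while in EB the array with the highest 3 h signal of each gene overlaps the EB 1 h arrays.

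The unfolded protein and integrated stress response genes were the list with the largest share of members below their 1 h signals among the pathway lists of 20 or more measured genes. All 24 listed genes were measured. Of these, 8 (33.3%) were lower without overlap and 1 was higher, beside 7.91% and 6.98% of all genes, and 8 were lower and 0 higher at an unadjusted p under 0.05, beside 4.71% and 5.31%. The median log2 fold change was -0.16, and 16 of the 24 were below 0. The mean log2 signal of the list, relative to its mean over all 30 arrays, was -0.01, -0.10 and -0.07 in the oil 3 h arrays, against 0.04, 0.14 and 0.15 in the oil 1 h arrays, without overlap.

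Of the CHOP arm, Ddit3, the transcription factor CHOP, read 106, 82.2 and 99.2 in the oil 3 h arrays, against 133, 166 and 151 in the oil 1 h arrays. Its log2 fold change was -0.65 (limma, SE 0.15, adjusted p = 0.11), and its second, dimmer probe set was at 0.01 with overlapping groups. Ppp1r15a (GADD34), a phosphatase subunit that restores translation, read 81.9, 92.1 and 99.8 at 3 h, against 134, 131 and 119 at 1 h, a log2 fold change of -0.49 (limma, adjusted p = 0.267). Chac1, an enzyme that degrades glutathione, was at -0.72 (limma, SE 0.23, adjusted p = 0.252), with 1 oil 1 h array at 84.6 inside the 3 h range. Atf4 itself was at -0.20, with overlapping groups.

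Of the genes that act in the endoplasmic reticulum, Herpud1, a component of the machinery that degrades misfolded proteins, read 175, 193 and 238 in the oil 3 h arrays, against 263, 364 and 300 in the oil 1 h arrays. Its log2 fold change was -0.61 (limma, SE 0.14, adjusted p = 0.112), and its second probe set was at -0.48, also without overlap. Xbp1, the transcription factor downstream of Ire1, read 1175, 1110 and 1114 at 3 h, against 1359, 1409 and 1737 at 1 h, a log2 fold change of -0.40 (limma, SE 0.11, adjusted p = 0.201). Its 3 other probe sets were at -0.23, -0.19 and 0.01. The files do not separate spliced from unspliced Xbp1.

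Creld2, a chaperone-like protein with an endoplasmic reticulum stress element shown above, read 174, 156 and 141 at 3 h, against 187, 193 and 266 at 1 h (log2 fold change -0.44). Pdia6, a protein disulfide isomerase with the same element, read 634, 571 and 627 at 3 h, against 768, 771 and 804 at 1 h (-0.36). Manf, a secreted neurotrophic factor of the endoplasmic reticulum, read 658, 549 and 575 at 3 h, against 692, 674 and 909 at 1 h (-0.34). In each of these 3 genes the highest 3 h signal was below the lowest 1 h signal, and their adjusted p from limma lay between 0.213 and 0.222.

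Hspa5, the main chaperone of the endoplasmic reticulum (BiP), read 1902, 1658 and 1911 at 3 h, against 1992, 2165 and 2089 at 1 h by its brightest probe set, a log2 fold change of -0.19 (limma, adjusted p = 0.561). A second probe set was at -0.41 with 943, 973 and 1044 against 1264, 1310 and 1357 (limma, adjusted p = 0.135), and the third, at -0.10, overlapped, so the probe sets of Hspa5 differ in size of change but not in direction. Edem1, which helps remove misfolded glycoproteins, was the list member above its 1 h signals, with 132, 111 and 113 at 3 h and 101, 96.5 and 100 at 1 h (log2 fold change 0.26), and its dimmer probe set was at -0.18 with overlap. Of the other genes with the element, Calr, a chaperone of glycoproteins, was at -0.05 with overlap by its brightest probe set, at -0.37 with overlap by the second and at -0.31 without overlap by the dimmest. Dnajc3, an inhibitor of Perk, was at -0.03 by its brightest probe set and between -0.45 and 0.07 by its 4 others, all with overlap. Apart from Ddit3 and Herpud1, which the naming rule gives, the members of this list were chosen after their values were seen. Leaving out each of the 6 arrays in turn, the list median lay between -0.19 and -0.10 and the number lower at an unadjusted p under 0.05 between 6 and 9.

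**Figure D3:**
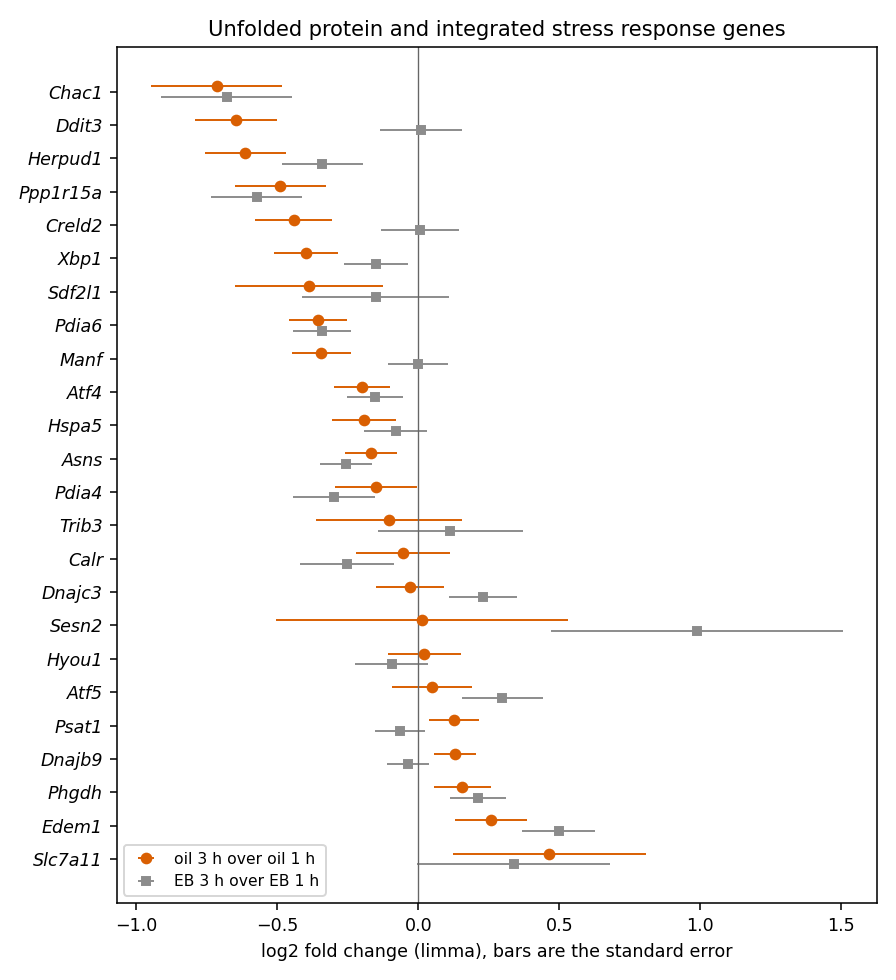
Log2 fold change of oil 3 h over oil 1 h (orange circles) and of EB 3 h over EB 1 h (grey squares) for the 24 unfolded protein and integrated stress response genes by brightest probe set, with bars for the standard error from limma. In oil, Chac1 at -0.72 to Manf at -0.34 lie at the top, left of 0; in EB, Ddit3, Creld2 and Manf lie at 0.01, 0.01 and -0.00.

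Beside these lists, the array measures also differed between the groups. The ratio of 3′ to 5′ Gapdh control signals was 0.674 to 0.711 in the oil 3 h arrays and 0.648 to 0.669 in the oil 1 h arrays, without overlap, and the same ratio for Actb was 1.29 to 1.42 and 1.27 to 1.37. The arrays of a group correlated with each other at a mean r of 0.978 to 0.981 at 3 h and 0.985 to 0.986 at 1 h. The deposited medians were 29.6 to 41.9 at 3 h and 36.4 to 43.8 at 1 h, within the 28.05 to 66.9 of the series, and no array held the values of another. The part of these differences in the results was not tested.

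Of the genes that read higher at 3 h, St8sia4, a polysialyltransferase that modifies the neural cell adhesion molecule, had the smallest p of all, with 1289, 1118 and 1161 in the oil 3 h arrays, against 936, 905 and 813 in the oil 1 h arrays (log2 fold change 0.43, standard error 0.08, adjusted p = 0.0773 from limma). Inip, a subunit of a single-stranded DNA binding complex, read 68.5, 67.4 and 47.8 at 3 h, against 27.96, 37.0 and 36.3 at 1 h (0.85, adjusted p = 0.0773 from limma). Igsf9, a synaptic cell adhesion molecule, read 102, 87.3 and 70.6 at 3 h, against 34.5, 50.3 and 45.0 at 1 h (1.00, adjusted p = 0.0773 from limma).

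For several of them another probe set of the same gene did not show the difference. The 2 other probe sets of Inip were at -0.00 and 0.03, and the brighter one of Igsf9 was at -0.21 and ran the other way without overlap. H13, an intramembrane protease of the endoplasmic reticulum, had 201, 183 and 168 at 3 h and 111, 116 and 123 at 1 h by the probe set of smallest p (log2 fold change 0.66), but its brightest was at -0.31, with 367, 331 and 375 against 450, 445 and 433. Of the 6 probe sets of H13, 3 were higher and 1 lower without overlap. Bola2, which acts in iron-sulfur protein assembly, was at 1.01 by its dimmest probe set and between -0.08 and 0.06 by its 4 others. Yy1, a zinc finger transcription factor, was at 0.49 with 356, 342 and 300 at 3 h and 224, 259 and 228 at 1 h, and at 0.20 by its brightest probe set, with overlap.

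The remaining 4 of the 10 genes named in this direction were Traf1, a signalling adaptor of tumour necrosis factor receptors, at 1.63, Lrrc4, a synaptic adhesion protein, at 0.62, Tmem41b, a lipid scramblase of the endoplasmic reticulum, at 0.56, and Dab2ip, a Ras GTPase-activating protein, at 0.37. Traf1 was dim, with 28.3, 30.5 and 12.6 at 3 h and 4.96, 6.90 and 10.8 at 1 h. All 4 were without overlap by the probe set of smallest p, with an adjusted p from limma between 0.0981 and 0.11. The brighter probe sets of Lrrc4 and Dab2ip were at 0.09 and 0.05, and the 5 other probe sets of Tmem41b lay between -0.20 and 0.23, of which 1, at 0.13, was higher without overlap.

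Among the genes that read lower at 3 h with the smallest p, Jun, Ddit3 and Herpud1 are given above. Siah1a, a ubiquitin ligase, read 221, 224 and 224 in the oil 3 h arrays, against 265, 341 and 281 in the oil 1 h arrays (log2 fold change -0.40, adjusted p = 0.11 from limma), while its brighter probe set was at 0.07. Olfm1, a secreted neuronal glycoprotein, was at -0.73 by 1 probe set, with 520, 521 and 684 at 3 h and 940, 823 and 1101 at 1 h, and at 0.02 and -0.10 by the 2 brighter ones. Oxtr, the oxytocin receptor, read 34.0, 29.7 and 19.4 at 3 h, against 48.3, 50.02 and 46.8 at 1 h (-0.84, adjusted p = 0.131 from limma), at low signals in both groups. Akr1b10, an aldo-keto reductase, was at -0.75 by its brightest probe set and at -0.23 and 0.44 by its 2 others, which overlapped. Rnf138rt1 was at -0.66, Slc18b1, a polyamine transporter, at -0.59 and Nrxn3, a presynaptic adhesion molecule, at -0.93 by its dimmest probe set and between -0.00 and 0.35 by its 4 others.

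Of 20 cholesterol synthesis genes measured, 4 (20%) were lower and 1 (5%) higher without overlap, beside 7.91% and 6.98% of all genes. At an unadjusted p under 0.05, 5 were lower and 0 higher by limma, beside 4.71% and 5.31%, and in the EB arm 1 was lower and 2 higher, with a median of 0.08. Mvk, mevalonate kinase, read 144, 117 and 158 at 3 h, against 189, 182 and 194 at 1 h (log2 fold change -0.44, adjusted p = 0.273 from limma). Nsdhl, an enzyme late in the pathway, read 565, 503 and 733 at 3 h, against 798, 815 and 766 at 1 h (-0.42, adjusted p = 0.289 from limma). Insig1, which holds the sterol sensor in the endoplasmic reticulum, was at -0.25, Cyp51, lanosterol demethylase, at -0.23 and Stard4, a sterol transport protein, at 0.30, all without overlap. The list median of -0.11 was -0.21 without oil 3 h replicate 1 and -0.03 without oil 3 h replicate 2 or 3.

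Hypoxia-responsive genes had 6 of 26 members (23.1%) lower and 3 (11.5%) higher without overlap, beside 7.91% and 6.98% of all genes, and a median of -0.07. Ldha, lactate dehydrogenase A, read 1657, 1417 and 1683 at 3 h, against 1998, 1963 and 1859 at 1 h (log2 fold change -0.29), and Pdk1, a kinase that inhibits pyruvate dehydrogenase, 278, 313 and 297 against 385, 354 and 345 (-0.29, adjusted p = 0.402 from limma). Bnip3 at -0.18 and Higd1a at -0.19, both mitochondrial, and P4ha2, a collagen prolyl hydroxylase, at -0.36 were also below. Ddit4, which inhibits mTOR and responds to hypoxia and glucocorticoids, ran the other way, with 448, 492 and 402 at 3 h and 330, 393 and 368 at 1 h (0.30, adjusted p = 0.357 from limma). Of the glucocorticoid-responsive genes, 1 of 23 (4.35%), Ddit4, was higher without overlap and 0 lower, beside 6.98% and 7.91% of all genes. Their median was 0.02.

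Among the splicing regulators, 3 of 35 (8.57%) were higher and 3 (8.57%) lower without overlap, near the 6.98% and 7.91% of all genes, with a median of -0.06. Clk1, a kinase of splicing factors, read 987, 855 and 795 at 3 h, against 636, 703 and 647 at 1 h (log2 fold change 0.40, adjusted p = 0.213 from limma), and Rbm5 was at 0.32. Srsf5 at -0.35, Tra2b at -0.28 and Hnrnpc at -0.34, which are splicing factors, were below their 1 h signals. Interferon-responsive genes had 3 of 13 members (23.1%) higher and 0 lower without overlap, beside 6.98% and 7.91% of all genes, Irf9 at 0.29, Oasl2 at 0.52 and Ifi35 at 0.43, and a median of 0.25. That median rested on single arrays, since it was -0.03 without oil 3 h replicate 1 and 0.33 without oil 1 h replicate 2. Clock genes had 3 of 19 (15.8%) lower and 0 higher without overlap, beside 7.91% and 6.98% of all genes, Dbp at -0.40, Csnk1e at -0.24 and the dim Ciart at -0.64, with a median of -0.04.

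In the other pathway lists no more than 4 members lay on one side without overlap. All genes had 7.91% lower and 6.98% higher without overlap. The 39 oxidative phosphorylation genes had 4 lower (10.3%) and 0 higher, with a median of -0.05. The 28 cell cycle genes had 2 lower (7.14%) and 1 higher (3.57%), with a median of -0.06. Of 4 measured cold-inducible genes 1 (25%), Srsf5, was lower. A dim probe set that carries both Rbm3, which is also cold-inducible, and Rbm3-ps was not counted. It was higher without overlap, with 34.4, 45.4 and 17.6 at 3 h and 10.8, 15.2 and 10.9 at 1 h. Its log2 fold change was 1.32 (limma, adjusted p = 0.171). Translation, neuronal development, heat shock, inflammation, apoptosis, fasting, noncoding RNA and hypothalamic peptide hormone genes had medians between -0.07 and 0.02.

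Of the genes the study followed by RT-PCR, 13 were measured. By the brightest probe set of each, log2 fold changes lay between -0.50 for Neurod6, a neurogenic transcription factor, and 0.33 for Apod, which encodes apolipoprotein D, with Ptgds, prostaglandin D synthase, at 0.32. Hcrt, the precursor of orexin, was at 0.30 and overlapped, as did Fn1 at 0.20, Esr1 at 0.21, Igf2 at 0.12, Vtn at 0.06, Meis2 at -0.06 and the internal control Actb at 0.03, which was -0.09 without scaling and -0.05 with quantile normalization. Pgr, the progesterone receptor, was higher without overlap, with 109, 110 and 114 in the oil 3 h arrays and 105, 87.7 and 83.9 in the oil 1 h arrays (0.27, adjusted p = 0.491 from limma). The second probe set of Pgr, at 0.42, overlapped. The second probe set of Fn1 was at -0.20, opposite to the first, and the 3 other probe sets of Meis2 were at -0.00, -0.20 and 0.25, all with overlap. The second probe sets of Ptgds, Esr1, Igf2, Vtn and Actb were at 0.41, 0.09, 0.15, 0.05 and 0.04, also with overlap. The dimmer of the 2 probe sets of Apod, at 0.56, was also higher without overlap. Klc1 was at 0.06 and Nedd4 at 0.02 by their brightest probe sets, but 1 of 3 probe sets of each was lower without overlap. That of Klc1, a motor protein light chain, read 465, 593 and 552 at 3 h, against 705, 672 and 697 at 1 h (-0.37), and that of Nedd4, a ubiquitin ligase, 662, 700 and 677 against 768, 903 and 801 (-0.27).

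Of 19 transcription factor markers of the hypothalamus, 17 were measured, with a mean list signal within 0.08 (log2) of the mean of the series in all 6 arrays. Every array of the series is labelled hypothalamus, so this closeness cannot check the tissue label. Few markers of neighbouring or adhering tissue were measured for anterior pituitary (2 of 12), skeletal muscle (1 of 12) and red blood cells (1 of 14). A gene counts as measured only by a probe set above the filter that carries 1 gene symbol. The unmeasured markers are thus not shown to be dim. Telencephalon markers, 12 of 16 measured, had list signals of -0.14, -0.07 and 0.13 at 3 h, against 0.22, 0.09 and 0.19 at 1 h, with overlap, a median log2 fold change of -0.14 and 11 of the 12 below 0. Thalamus markers, 10 of 11 measured, had 0.21, -0.40 and 0.27 at 3 h, against -0.07, 0.20 and 0.39 at 1 h, with overlap, a median of -0.09 and 9 of the 10 below 0. Hbb-b2, the red blood cell gene measured, was dim, with 26.3, 34.6 and 34.7 at 3 h and 54.1, 40.4 and 54.7 at 1 h. Leptomeningeal fibroblast markers, 20 of 23 measured, had list signals of 0.37, 0.48 and -0.21 at 3 h, against 0.27, -0.12 and -0.25 at 1 h, which overlapped, with a median log2 fold change of 0.25. Border macrophage markers, 6 of 8 measured, had 0.22, 0.69 and 0.16 at 3 h, against 0.09, -0.16 and 0.13 at 1 h, without overlap. Taken singly, 0 of these 6 genes were without overlap in either direction. The list median was 0.31 in oil and -0.46 in EB 3 h against EB 1 h. Microglia markers, 11 of 14 measured, had list signals of -0.02, -0.27 and -0.34 at 3 h. At 1 h these were -0.28, -0.37 and -0.29, with overlap. Singly, 2 of the 11 (18.2%) were higher and 0 lower without overlap, beside 6.98% and 7.91% of all genes. Their median was 0.20 in oil and -0.10 in EB. Of the 15 astrocyte and radial glia markers measured, Hes5 at 0.85 was higher without overlap and 1 was lower without overlap. Each is 6.67% of the list, beside 6.98% higher and 7.91% lower of all genes. Gja1 at 0.49 overlapped by its brightest probe set. A dimmer probe set of Gja1, with an x_at suffix, was at 1.10 and higher without overlap (limma, adjusted p = 0.11). The list median was 0.09 and 6 of the 15 were below 0. Pan-neuronal markers had a median of 0.00 and 0 of 16 without overlap. The part of the telencephalon, thalamus, macrophage, microglia and fibroblast signals in the results was not tested.

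**Figure D4:**
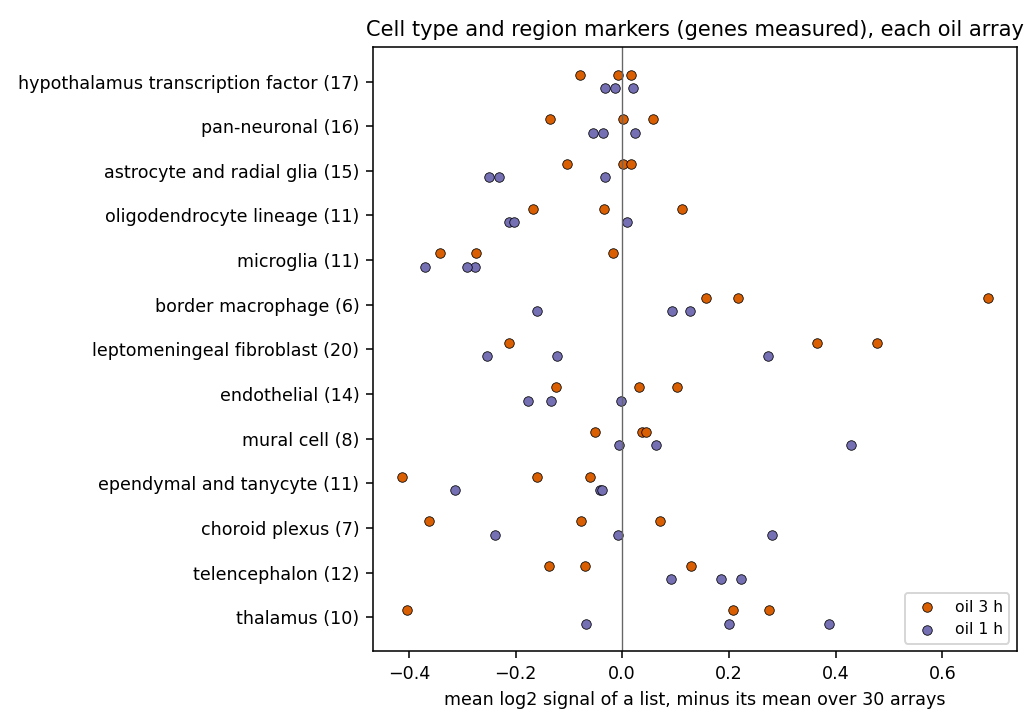
Mean log2 signal of each marker list in each array (x axis, log2 units relative to the mean of the 30 arrays) for 13 lists with at least 5 measured genes, whose number is in brackets, with orange points for oil 3 h and purple points for oil 1 h. Border macrophage markers are the list whose groups do not overlap, though 0 of its 6 genes were without overlap singly. Hypothalamus markers lie within 0.08 of 0 in every array, and pan-neuronal markers between -0.14 and 0.06.

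Set beside the EB arm, which shares no array with the oil arm at these times, the same step of time gave partly the same direction. In EB 3 h against EB 1 h, limma called 11 probe sets higher (0.0407%) and 26 lower (0.0962%). Of the 26 lower ones, 23 were also below 0 in oil, with a median oil log2 fold change of -0.12 beside -0.74 in EB, and of the 11 higher ones 6 were above 0 in oil. Klc1 was among the lower ones, at -0.37 in oil and -1.05 in EB, as were Gdi2 at -0.21 and -0.97 and Septin6 at -0.33 and -0.74. Over all 27022 probe sets, 59.0% had the same sign in both arms and the fold changes correlated at r = 0.19, across probe sets that are not independent. Of the 975 that were higher in oil without overlap and with an unadjusted p under 0.05, 74.8% were above 0 in EB, and of the 950 lower ones 70% were below 0. The ratio of 3′ to 5′ Gapdh control signals was 0.705 to 0.712 at EB 3 h and 0.683 to 0.690 at EB 1 h. As in oil, it was higher at 3 h without overlap. The deposited medians were 28.05 to 34.5 at EB 3 h and 35.6 to 39.1 at EB 1 h. The part of these array differences in the shared direction was not tested.

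Of the 35 immediate early genes, 7 were lower and 1 higher in the EB arm at an unadjusted p under 0.05 by limma, beside 4.46% and 6.05% of all genes, and their EB median was -0.11. Fos read 206, 290 and 623 in the EB 3 h arrays, against 518, 1584 and 430 in the EB 1 h arrays, with a log2 fold change of -1.08. Egr1 read 278, 351 and 965 at EB 3 h, against 678, 2785 and 683 at EB 1 h (-1.26). In both, EB 3 h replicate 3 lay inside the EB 1 h range, and neither passed the test in EB. Jun was at -0.44 and Nr4a1 at -0.61. Of the stress response genes, Ppp1r15a at -0.57 and Herpud1 at -0.34 were below without overlap in EB too, and Edem1 at 0.50 above, whereas Ddit3, Creld2 and Manf were at 0.01, 0.01 and -0.00; the list median was -0.07, with 6 lower and 3 higher at an unadjusted p under 0.05.

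The difference between the arms was tested directly, and 0 of 27022 probe sets (0%) passed by limma, with 1662 at an unadjusted p under 0.05. The 5 genes with the smallest p all read lower in oil and higher in EB. Fbxo36, an F-box protein, was at -0.33 in oil, with 93.0, 110 and 118 at 3 h and 134, 132 and 135 at 1 h, and at 0.51 in EB (adjusted p = 0.084 for the difference from limma). Snrnp48, a component of the minor spliceosome, was at -0.71 in oil and 0.76 in EB, Pisd-ps3 at -0.86 and 1.54, Trmt112, an activator of methyltransferases, at -0.61 and 0.38, and Klhl7, a ubiquitin ligase adaptor, at -0.04 and 0.33. The oil value of Pisd-ps3 was -0.36 without oil 3 h replicate 1 and -1.22 without oil 3 h replicate 3. For Ddit3 the adjusted p of the difference was 0.64.

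Over the rest of the oil series the genes divided by what followed. At 1, 3, 6, 12 and 24 h Fos averaged 405 ± 179, 152 ± 27.6, 114 ± 9.3, 113 ± 15.1 and 113 ± 12.4 (SD, n = 3 each), and all 9 arrays from 6 h on lay below the 3 arrays at 3 h. Egr1 averaged 596 ± 366, 199 ± 83.9, 174 ± 23.0, 132 ± 18.1 and 179 ± 27.2 at the same times. Jun took another course, with 399 ± 15.3, 222 ± 57.0, 253 ± 4.9, 342 ± 24.3 and 240.4 ± 8.7, with its 12 h mean the nearest to that at 1 h. Rnf138rt1, Slc18b1, Oxtr and Akr1b10 also stood higher at 12 h than at 3 h, and Olfm1, by the probe set named above, averaged 955 ± 139, 575 ± 94.1, 728 ± 174, 1106 ± 72.2 and 684 ± 138. The oil 12 h arrays had the highest deposited medians of the oil arrays before scaling, at 61.5, 66.9 and 66.4. The part of this in the 12 h signals was not tested. Ddit3 averaged 149.8 ± 16.6, 95.8 ± 12.2, 103 ± 14.98, 129.7 ± 10.1 and 121 ± 13.5 at these times. St8sia4 averaged 884 ± 63.8, 1189 ± 88.4, 1187 ± 97.2, 1368 ± 30.8 and 1303 ± 38.1, so its 1 h arrays were the lowest of the oil series. The probe set of Klc1 that was lower at 3 h had lower means still at 6 h and 12 h in oil, with 691 ± 17.3, 537 ± 65.1, 228 ± 21.2, 144 ± 41.9 and 331 ± 30.8 at the 5 times, and limma called it at 6 h against 3 h (log2 fold change -1.23, adjusted p = 5.8e-05). That of Nedd4 averaged 824 ± 70.1, 679.8 ± 19.3, 267 ± 24.4, 204 ± 25.3 and 461 ± 52.3, and was also called at 6 h against 3 h (-1.35, adjusted p = 1.3e-07 from limma).

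None of Fos, Egr1, Jun, Ddit3, Herpud1 and St8sia4 passed in a later step of oil from 6 h to 24 h by limma; the smallest adjusted p were 0.0587 for Jun at 24 h against 12 h and 0.0909 for St8sia4 at 12 h against 6 h. The later steps as a whole held many calls where the step from 1 h to 3 h held 0. At 6 h against 3 h limma called 711 probe sets higher (2.63%) and 1038 lower (3.84%), at 12 h against 6 h 1893 (7.01%) and 649 (2.4%), and at 24 h against 12 h 2015 (7.46%) and 1436 (5.31%). These steps share arrays with each other, and the steps differ in length. The scaled signal of the 18S ribosomal RNA control was 1540 to 1680 in the oil 6 h arrays. It was 792 to 1062 at oil 3 h, 703 to 968 at oil 12 h and 661 to 1221 at oil 24 h. The part of this in the calls, those of Klc1 and Nedd4 included, was not tested.

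**Figure D5:**
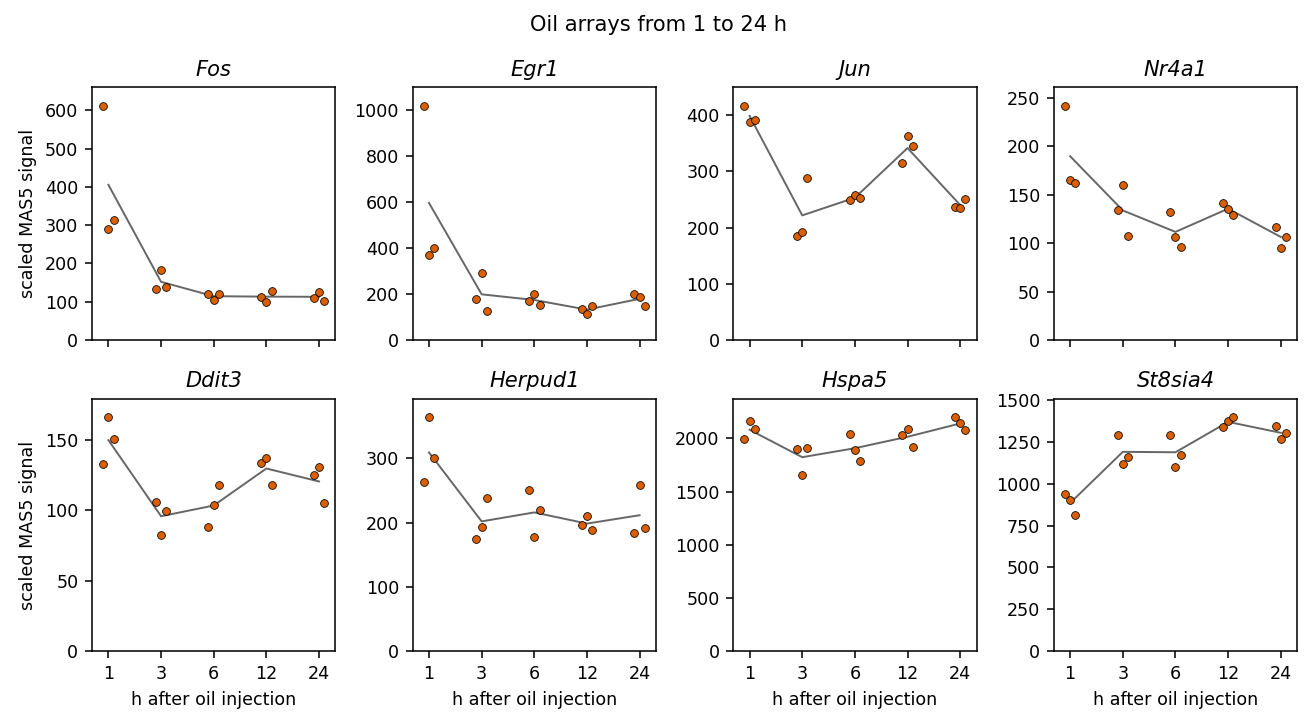
Scaled MAS5 signal (y axis, linear from 0) of 8 genes in each oil array at 1, 3, 6, 12 and 24 h (x axis, equally spaced), with points for arrays and a line through the means. The 1 h arrays are the highest by group mean for Fos, Egr1, Jun, Nr4a1, Ddit3 and Herpud1 and the lowest for St8sia4.

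Untested ratios of mean signals reached 2 in 30 probe sets (0.111%) and 0.5 or lower in 13 (0.0481%). Egr1 at 0.333 and Fos at 0.375 were the brightest of the 13, whose median signal was 14.6 at 3 h and 38.0 at 1 h, and Mcm2, a replication licensing factor, was at 0.468 with 30.01, 36.4 and 57.9 at 3 h and 83.9, 65.9 and 116 at 1 h. The 30 had a median signal of 36.4 at 3 h and 17.8 at 1 h. Over all probe sets kept the medians were 123 and 124, so most of the 30 were dim, and 7 of them were probe sets with an x_at suffix, whose probes can match other transcripts.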

How the data were processed

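Affymetrix mouse expression arrays were hybridised with hypothalamic RNA, 1 animal an array, 30 arrays in 10 groups of 3. The deposited intensity values are MAS5 signals computed by the authors, whose software version is not given in the sources used here; every array column matched a sample. Signals were multiplied to bring every array's median to 41.3, the mean of the array medians, values under 1 were set to 1, log2 was taken, and the 40% of probe sets with the lowest mean over the 30 arrays were left out. This kept 27022 of 45037 probe sets (64 controls were left out before) and 12388 genes, with a lowest mean signal of 21.9. Of the 45037, 34945 had 1 gene symbol, 932 several and 9160 none. Only the first kind was counted in the lists and named, apart from the probe set shared by Rbm3 and Rbm3-ps. Fold changes are on the log2 scale of floored signals, and precision is limited by the number of arrays. The 10 groups were fitted together in limma 3.58.1 under R 4.3.3, using eBayes with an intensity trend, with Benjamini-Hochberg adjustment over all probe sets and a threshold of 0.05. With 3 arrays against 3 an exact permutation test cannot go below 0.1, so single values were not tested that way. Litters are not given, so p-values measure the spread between these mice.

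The rule for named genes took called genes first, then, where under 10 in a direction were called, those of smallest p with no overlap between the groups up to 10, the 2 members of smallest p in each list, the genes the study followed by RT-PCR by every probe set, and the 5 genes of smallest p for the difference between the arms. Other genes were chosen after their values were seen. Members and lists were chosen with earlier results of these data known. A list takes the brightest probe set of each gene. The alternatives were no scaling, quantile normalization, 16 added before log2, other filters, array weights, no trend, fewer arrays in the fit, the methods' test, a replicate block and leaving out each array. The scripts were tested on simulated data. Figures were drawn with Python 3.11.15 and matplotlib 3.10.9. Promoter sequences are from RefSeq (GRCm38.p6). The columns of the value table hold no comparison of the authors' own.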

Additional observations from a re-analysis of the deposited data

How the results depend on the processing

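By the fit as reported limma called 0 probe sets in oil 3 h against oil 1 h. Leaving out 1 array gave 0 to 66 probe sets higher and 0 to 60 lower by limma, both highest without oil 3 h replicate 3, 23 to 64 at 2-fold or more and 14 to 67 at 0.5-fold or less, 0 to 2 for the difference between the arms, and 0 (without EB 3 h replicate 2) to 164 (without EB 3 h replicate 3) in EB 3 h against EB 1 h, where 37 were called. Quantile normalization gave 1 higher in oil (St8sia4, adjusted p = 0.021) and 59 in EB. Array weights gave 13 higher, 3 lower and 117 in EB. A fit on the 15 oil arrays gave 2 higher and 3 lower (adjusted p = 0.028 for Fos, 0.027 for Jun and 0.028 for H13 by limma). Without scaling, which moved the median of all probe sets to -0.14, EB had 272 calls, and 14 probe sets were at 2-fold or more and 23 at 0.5-fold or less in oil. Without the filter EB had 21 calls, and 2042 and 1773 probe sets passed the 2-fold and 0.5-fold limits; with the stricter filter 4 and 2 did. Without the trend EB had 0 calls and the difference 1, with only the arrays of the comparison EB had 1, and by the methods' test EB had 0 with either adjustment. The causes were not tested.

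The replicate numbers do not pair the arrays (same-numbered arrays of the 2 groups correlated at 0.06, -0.04 and 0.05), and with the replicate block limma called 0 higher, 0 lower, 36 in EB and 0 for the difference. Of 147 named probe sets, each under up to 17 alternatives, 2395 values kept their direction and their side of the threshold, 27 passed it and 38 changed sign. Among the last, the brightest probe set of Meis2 went from -0.06 to 0.21 without oil 1 h replicate 3. Its dimmest probe set went from 0.25 to -0.018 without the same array. Without scaling Actb was at -0.093 and -0.088, Esr1 at -0.038, Igf2 at -0.0077, Klc1 at -0.066, Nedd4 at -0.11 and Vtn at -0.066 and -0.070. With quantile normalization Actb was at -0.047 and Klhl7 at 0.0095, and with array weights Actb was at -0.0048 and Nedd4 at -0.0076. Leaving out 1 array, the log2 fold change ranged from -0.057 to 0.091 and -0.036 to 0.086 for Actb, -0.028 to 0.41 for Igf2, -0.047 to 0.18 and -0.091 to 0.064 for Klc1, -0.34 to 0.21, -0.13 to 0.15, -0.41 to 0.025 and -0.018 to 0.54 for Meis2, -0.030 to 0.067 for Nedd4, -0.032 to 0.12 and -0.091 to 0.16 for Vtn, -0.19 to 0.0019 for Gata2, -0.14 to 0.00018 for Cux1 and -0.16 to 0.055 for Acta1.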
